A study of Rattus norvegicus with 320 samples.

Results

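The rodent miR-344 family is a group of small regulatory RNAs made from clustered hairpin genes, and its levels are described here in 11 organs of the Fischer 344 rat at 4 ages. Members were the rows of the deposited count table whose name starts with rno-miR-344, a rule that used no measured value. It found 5 of the 616 miRNAs: rno-miR-344b-1-3p, rno-miR-344a-3p, rno-miR-344b-5p, rno-miR-344b-3p and rno-miR-344i. Their mean counts over the libraries used were 88.6, 41.6, 4.53, 3.18 and 0.997, so that the last 3 lay under 10 counts per library on average.

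The series holds 320 small RNA libraries from 32 untreated rats of 1 inbred strain, Fischer 344, with 4 females and 4 males at each of weeks 2, 6, 21 and 104. Each rat gave 10 organs: adrenal gland (Adr), brain (Brn), heart (Hrt), kidney (Kdn), liver (Lvr), lung (Lng), muscle (Msc), spleen (Spl), thymus (Thm), and testis (Tst) or uterus (Utr). Organs were ground whole, so no brain region or cell type was separated, and fewer cells of a type cannot be told apart from less RNA per cell. The 2 libraries that the study set aside because they clustered with uterus, Brn_M_006_3 and Spl_F_104_4, were left out, which leaves 7 brain libraries at week 6.

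Values are CPM, the count of a miRNA divided by the summed miRNA count of its library and scaled to 10⁶. Log2 changes and differences are edgeR estimates with TMM factors on top of library totals, unless library size alone is named, and so need not equal the ratio of the CPM means beside them. Totals ranged from 315550 to 10571766 counts, with brain between 1164462 and 4958803. The tissue labels were checked against marker miRNAs: the 10 neural miRNAs summed to 101091 CPM on average in brain and to at most 5074 CPM in any other organ, the average of thymus, and the adrenal gland averaged 1566 CPM. No organ other than brain therefore carried the neural list near its brain level. In thymus and adrenal gland most of the sum was miR-128-3p, at 4816 and 1154 CPM. The study's quality records set apart some libraries that were kept: all 8 spleen samples of week 2 had degraded RNA, unlike the later spleen samples, and replicate 4 of the females at week 104 in brain had a far smaller share of miRNA reads than the other brain libraries.

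A miRNA is cut from one arm of a folded hairpin transcript and guides silencing proteins to messenger RNAs, mainly through bases 2 to 8 counted from its 5′ end, the seed. The miR-344 hairpins are known from rodents and lie in the chromosomal region of Ndn and Magel2, genes expressed from the paternal copy in the nervous system and part of the segment whose human counterpart is tied to Prader-Willi syndrome. Which transcripts the family silences in rat brain was not measured in these libraries.

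The mature sequences, as the deposited table gives them, are shown first, with the seed printed in capitals.
rno-miR-344b-1-3p: gAUAUAACcaaagcccgacugu
rno-miR-344b-3p: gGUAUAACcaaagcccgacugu
rno-miR-344a-3p: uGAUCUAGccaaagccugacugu
rno-miR-344i: cUCUAGCCagggcuugacugca
rno-miR-344b-5p: aGUCAGGCugcugguuauauuc

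The 5 members had 5 distinct seeds. rno-miR-344b-1-3p and rno-miR-344b-3p differed by A2G alone, with positions counted from the 5′ end of the first, and shared the other 20 bases from position 3 on. The seed of rno-miR-344i recurred in rno-miR-344a-3p at positions 4 to 10, that is, 2 bases further in than a seed. Among the other miRNAs of the table, 1 shared a seed with a member: rno-miR-410-3p has the AUAUAAC of rno-miR-344b-1-3p. The reads were aligned with up to 1 mismatch, and the sources do not say how a read was assigned between sequences 1 base apart, so the split between rno-miR-344b-1-3p and rno-miR-344b-3p is uncertain. The other members are too different from each other for a single mismatch to join them. A further hairpin of the family, Mir344-1, holds a stretch 1 base from rno-miR-344a-3p, and its product has no row of its own. Whether reads from Mir344-1 were counted as rno-miR-344a-3p is not known, so the level of rno-miR-344a-3p and its source are uncertain too.

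The RefSeq annotation of build GRCr8 places 7 Mir344 hairpins on the minus strand of chromosome 1, within 809.7 kb, with no hairpin of another miRNA within 500 kb of a hairpin that holds a member. A group of 3 lies close together, Mir344b-2 (chr1:124028505-124028575), Mir344b-1 (chr1:124035661-124035758) and Mir344b-3 (chr1:124044536-124044606), 7085 and 8777 bases apart, and the others follow after a gap of 610415 bases. rno-miR-344b-5p can come from each of these 3 hairpins, rno-miR-344b-1-3p from Mir344b-1 only, and rno-miR-344b-3p from Mir344b-2 and Mir344b-3, which are identical. Mir344a-2 (chr1:124655022-124655128) holds the sequence of rno-miR-344a-3p, and Mir344i (chr1:124838110-124838208) that of rno-miR-344i. Ndn starts 0.423 Mb and Magel2 0.454 Mb beyond the cluster, both at higher coordinates. RefSeq, the source of both hairpins, has the same mature sequence for 4 of the 5 members and no mature entry under the name rno-miR-344a-3p. The Mir344b-1 hairpin is printed, with both of its members in capitals, because it is the source of the most abundant member and of its opposite arm, followed by that of rno-miR-344a-3p.
Mir344b-1: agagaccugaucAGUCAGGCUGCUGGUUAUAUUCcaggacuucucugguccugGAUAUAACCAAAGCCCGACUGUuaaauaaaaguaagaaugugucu
Mir344a-2: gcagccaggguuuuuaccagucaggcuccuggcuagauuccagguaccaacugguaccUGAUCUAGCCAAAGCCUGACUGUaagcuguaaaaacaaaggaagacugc

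These positions are those of GRCr8 and were not carried to the Rn7 build that the study aligned to.

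All 5 members had their highest level in brain. rno-miR-344b-1-3p averaged 289 ± 126 CPM there (SD, n = 31), rank 155 of 616 miRNAs, and rno-miR-344a-3p 112 ± 24.5 CPM, rank 213. The other 3 were low: rno-miR-344b-5p averaged 14.8 ± 7.53 CPM, rno-miR-344b-3p 10.4 ± 4.28 CPM and rno-miR-344i 2.83 ± 1.45 CPM in the same 31 libraries. Brain gave 96.2% of all counts of rno-miR-344b-1-3p, 97.9% of those of rno-miR-344b-3p and 94.9% of those of rno-miR-344b-5p, but 81.9% for rno-miR-344a-3p and 81.4% for rno-miR-344i.

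**Figure D1:**
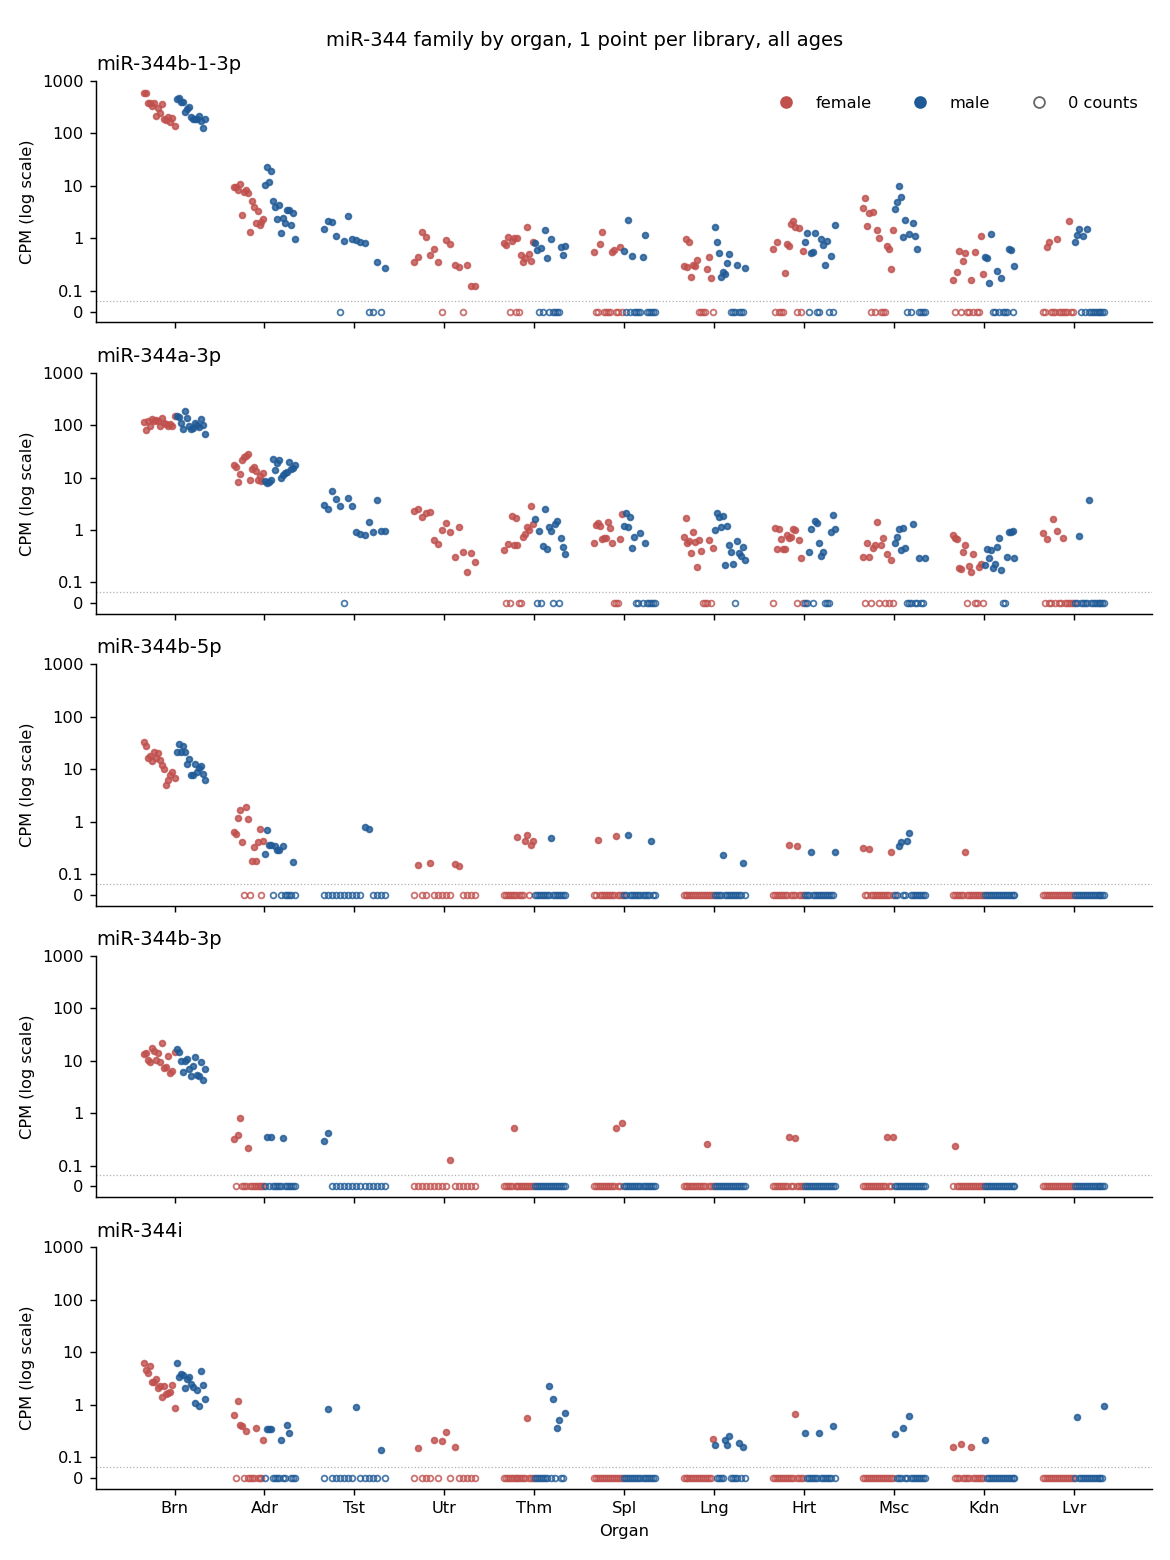
CPM of each member (log axis) in every library, by organ; within an organ points run from females to males and from week 2 to week 104, and open circles on the line marked 0 are libraries without a count. Brain is highest in each panel, from 126 to 604 CPM for miR-344b-1-3p, and only miR-344a-3p and miR-344b-1-3p have counts in every adrenal library.

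For 4 members, brain libraries did not overlap with those of any other organ. rno-miR-344b-1-3p ran from 126 over a median of 243 to 604 CPM in brain, whereas the highest of 287 other libraries, an adrenal gland at week 2, had 23.0 CPM. rno-miR-344a-3p ran from 68.7 over 108 to 182 CPM, against at most 27.7 CPM elsewhere, again in an adrenal gland. rno-miR-344b-5p, from 5.04 to 32.3 CPM in brain, reached at most 1.94 CPM outside it, and rno-miR-344b-3p, from 4.25 to 21.6 CPM, at most 0.818 CPM. rno-miR-344i overlapped, since 5 of the 287 libraries lay at or above its lowest brain value of 0.859 CPM, the highest being a thymus with 2.28 CPM. Every brain library exceeded every other library for 11.7% of all 616 miRNAs, so this separation was shared by 72 miRNAs.

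Brain exceeded each of the 10 other organs at each of the 4 ages for every member with edgeR's quasi-likelihood test (Benjamini-Hochberg adjusted p below 0.05 in 40 of 40 comparisons for each), where 43.8% of all tests over the 616 miRNAs were higher in brain. By the stricter rule of at least 4-fold over each organ at every age, 4 of 5 members were brain-enriched, against 7.95% of all miRNAs (49 of 616). The smallest log2 difference of brain over an organ was 4.14 (SE 0.26) for rno-miR-344b-1-3p, in adrenal gland at week 2, and 4.40 (SE 0.39) for rno-miR-344b-3p, also there. For rno-miR-344b-5p it was 3.54 (SE 0.31), in adrenal gland at week 6, and for rno-miR-344i 2.05 (SE 0.65), in uterus at week 21. rno-miR-344a-3p missed the rule through the adrenal gland, with a log2 difference of 1.23 (SE 0.20) at week 6, and passed 4-fold in 37 of its 40 comparisons, where 31.5% of all tests did.

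The scaling between these organs mattered. With TMM factors the median log2 difference between brain and adrenal gland over all miRNAs lay between -0.06 and 0.20 at the 4 ages, but with library size alone between 1.08 and 1.38, and rno-miR-344a-3p then passed the rule with a smallest difference of 2.56. rno-miR-344i passed narrowly, and it fell short with DESeq2, with the lane, the sex or the replicate number in the model, and without any 1 replicate number. rno-miR-344b-3p fell short only with the lane in the model. Within each of the 8 sequencing lanes, brain stayed apart from all other organs for the 4 members other than rno-miR-344i. By mean CPM without TMM factors, ages pooled, the log2 ratio of brain to adrenal gland was 4.72 to 7.53 for rno-miR-344b-1-3p. It was 2.50 to 3.47 for rno-miR-344a-3p. rno-miR-344i was apart in 6 of 8 lanes.

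The adrenal gland, whose medulla is made of cells of neural crest origin, had the next highest mean for rno-miR-344a-3p, rno-miR-344b-1-3p and rno-miR-344b-5p. For rno-miR-344b-3p and rno-miR-344i no adrenal library had more than 2 and 3 counts, so no next organ is named for them. Brain was called above the adrenal gland at all 4 ages for 5 of 5 members, as for 28.1% of all miRNAs. rno-miR-344a-3p had 14.7 ± 5.63 CPM there (n = 32), between 7.91 and 27.7 CPM with a median of 13.7 CPM, and rno-miR-344b-1-3p 5.78 ± 5.19 CPM, between 0.960 and 23.0 CPM with a median of 3.73 CPM. By the means over all ages rno-miR-344b-1-3p led in brain and rno-miR-344a-3p in adrenal gland. At week 2 this order did not hold in the adrenal glands of males, which had 16.1 ± 6.19 CPM of rno-miR-344b-1-3p and 8.42 ± 0.540 CPM of rno-miR-344a-3p (n = 4), with the first higher in each. Each was higher in adrenal gland than in all 9 remaining organs at every age (36 of 36 comparisons with edgeR's quasi-likelihood test and adjusted p below 0.05, where 37.2% of all tests were), and past 4-fold in 33 and 36 of them, where 23.9% of all tests were. rno-miR-344b-5p was higher in 24 of 36 comparisons, and rno-miR-344b-3p and rno-miR-344i in 8 each, at adrenal means of 0.40, 0.0871 and 0.171 CPM.

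Expressed against brain, the adrenal level of rno-miR-344a-3p was 13.1% and that of rno-miR-344b-1-3p 2.00%. The neuronal miR-124-3p stood at 0.142% in the same libraries, 15.4 against 10829 CPM, miR-9a-5p of neural progenitors and neurons at 0.172%, and miR-128-3p at 3.80%. Neural markers in the adrenal libraries were therefore low but not at 0, with a list sum from 508 to 3834 CPM and each of the 10 detected. Most of the mean sum was miR-128-3p, at 1154 CPM. The part of these markers in the adrenal levels of the family was not tested. In each brain library log2(344b-1-3p/344a-3p), from counts with 0.5 added, was higher than in each adrenal library of the same age. The means were 2.04 against 0.21 at week 2, 1.22 against -2.14 at week 6, 1.06 against -2.28 at week 21 and 0.77 against -2.48 at week 104. The difference was 1.83, 3.36, 3.34 and 3.25 in turn, each with p = 0.000155 by a two-sided exact permutation test, the smallest value that these numbers of libraries allow. This comparison was chosen after the values were seen. The test treated brain and adrenal libraries as independent, although each rat gave both organs.

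**Figure D2:**
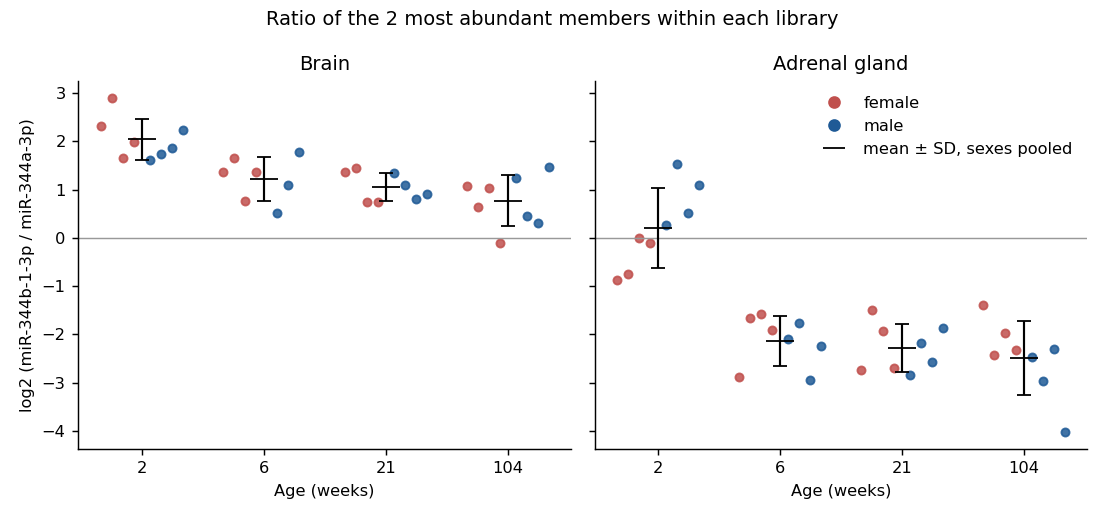
Log2 ratio of miR-344b-1-3p to miR-344a-3p within each library (0.5 added to both counts) against age in weeks, in brain (left) and adrenal gland (right); red points are females, blue points males, and bars the mean ± SD with the sexes pooled. Brain means run from 2.04 to 0.77 and adrenal means from 0.21 to -2.48, and the brain and adrenal ranges do not overlap at any age.

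Below the adrenal gland, levels were close to the detection limit. The next organ was muscle for rno-miR-344b-1-3p, at 1.76 ± 2.34 CPM (n = 32), and testis for rno-miR-344a-3p, at 2.20 ± 1.58 CPM (n = 16), followed by uterus at 1.12 ± 0.817 CPM. The adrenal gland exceeded these next organs at 4 of 4 ages for both members, with adjusted p of at most 0.000185 and 1.51e-07 by edgeR's quasi-likelihood test. Further neighbours in the order were called at 3 ages or fewer. For rno-miR-344a-3p, thymus over spleen was called at 3 of 4 ages, uterus over thymus at 2 and testis over uterus at 1, and for rno-miR-344b-1-3p no further pair of neighbours was called at more than 1 of 4 ages. No library of 9 organs for rno-miR-344b-5p, and of 10 organs for rno-miR-344b-3p and rno-miR-344i, had more than 3 counts, and the order of these organs is therefore not given. In liver, the organ with the lowest totals, neither rno-miR-344b-5p nor rno-miR-344b-3p had a count in 32 libraries, which allows up to 0.0941 CPM (95% upper limit, exact Poisson, counting error only).

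In brain the mean summed level of the family was lower at each later age, but the members differed. The summed level of the 5 members was 609 ± 97.2 CPM at week 2 (n = 8), 464 ± 50.8 CPM at week 6 (n = 7), 345 ± 83.6 CPM at week 21 (n = 8) and 300 ± 29.8 CPM at week 104 (n = 8). Between weeks 2 and 104, edgeR's quasi-likelihood test called 3 members lower and 1 higher, while 26.0% and 28.7% of all miRNAs were lower and higher. Changes in either direction were thus common in this organ, and the members' count is not set apart from that background.

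**Figure D3:**
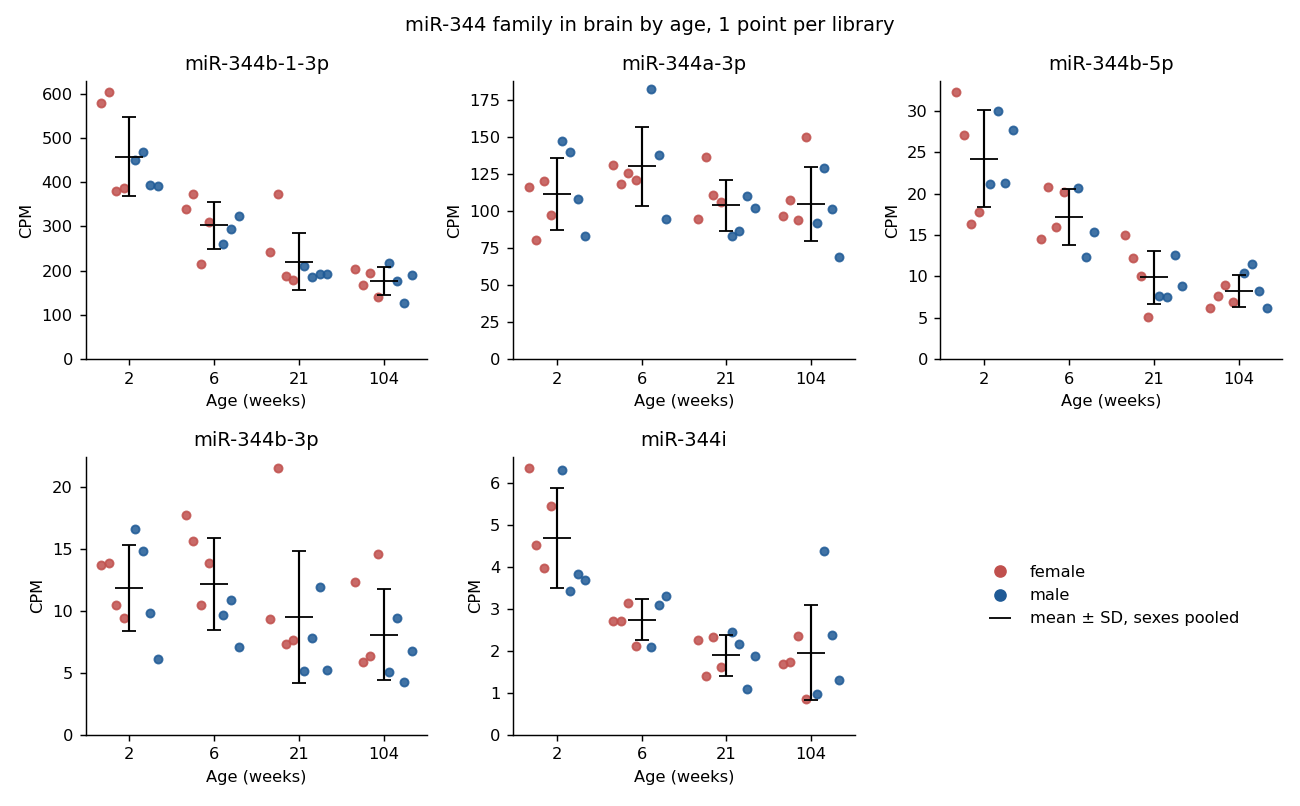
CPM of each member in the 31 brain libraries against age in weeks; red points are females, blue points males, and black bars the mean ± SD with the sexes pooled. miR-344b-1-3p runs from 457 to 177 CPM and miR-344b-5p from 24.2 to 8.23 CPM between weeks 2 and 104, while the means of miR-344a-3p stay between 104 and 130 CPM.

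Both members that the Mir344b-1 hairpin holds fell, although rno-miR-344b-5p can also come from Mir344b-2 and Mir344b-3. rno-miR-344b-1-3p had its lowest, median and highest library at 381, 422 and 604 CPM at week 2, 215, 310 and 374 CPM at week 6, 179, 192 and 372 CPM at week 21, and 126, 183 and 217 CPM at week 104. Every library of week 104 lay below every library of week 2, as for 20.1% of all miRNAs, while 4.71% lay wholly above and no member did. The mean CPM went from 457 ± 89.2 to 177 ± 31.0. The TMM-scaled log2 change was -0.93 (SE 0.14, adjusted p = 2.02e-06, edgeR's quasi-likelihood test), and with library size alone, the scale of the CPM, it was -1.36. Week 6 also lay wholly below week 2, as for 14.8% of all miRNAs, yet this step was not called at -0.31 (SE 0.15, adjusted p = 0.0833).

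rno-miR-344b-5p, cut from the opposite arm, had 16.3, 24.2 and 32.3 CPM at week 2 as lowest, median and highest, 12.4, 16.0 and 20.8 CPM at week 6, 5.04, 9.43 and 15.02 CPM at week 21, and 6.16, 7.93 and 11.5 CPM at week 104. Weeks 2 and 104 did not overlap. Its log2 change was -1.11 (SE 0.18, adjusted p = 7.52e-06, edgeR's quasi-likelihood test). It was the only member called lower from week 6 to week 21, by -0.64 (SE 0.18, adjusted p = 0.0171), where 9.90% of all miRNAs were called lower and 8.60% higher; without replicate 2 or replicate 4, or with the lane in the model, that step was not called.

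rno-miR-344i fell as well. Its mean CPM went from 4.70 ± 1.19 to 1.96 ± 1.13, the TMM-scaled log2 change was -0.78 (SE 0.26, adjusted p = 0.0122, edgeR's quasi-likelihood test) and that with library size alone -1.2, and weeks 2 and 104 overlapped, from 3.42 to 6.36 CPM and from 0.859 to 4.38 CPM. It rested on 1 to 15 counts per library, and without replicate 1 or replicate 4 the call was lost (adjusted p = 0.228 and 0.0866). rno-miR-344b-3p, from Mir344b-2 and Mir344b-3, averaged 11.9 ± 3.45, 12.2 ± 3.72, 9.52 ± 5.34 and 8.09 ± 3.70 CPM at the 4 ages and was called in none of the 4 contrasts. Its week 104 against week 2 difference was -0.23 (SE 0.24, adjusted p = 0.435, edgeR's quasi-likelihood test), but -0.64 and called lower with library size alone (adjusted p = 0.0443).

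rno-miR-344a-3p had means between 104 and 130 CPM throughout. They were 112 ± 24.4 CPM at week 2, 130 ± 26.8 CPM at week 6, 104 ± 16.9 CPM at week 21 and 105 ± 24.8 CPM at week 104, and all ages overlapped. With TMM factors it was called higher at week 6 than at week 2 by 0.52 (SE 0.13, adjusted p = 0.00173, edgeR's quasi-likelihood test), where 23.5% of all miRNAs were higher and 19.3% lower. It was also called higher at week 104 than at week 2 by 0.31 (SE 0.13, adjusted p = 0.0406), a difference that with library size alone was -0.09 and not called. The week 6 difference was 0.24 (adjusted p = 0.215) with library size alone. The median log2 change of all miRNAs between weeks 2 and 104 was 0.07 with TMM and -0.33 with library size alone, and the share of called miRNAs that were lower moved from 47.5% to 73.2%. Against that median, rno-miR-344a-3p stood 0.24 higher under both scalings, and rno-miR-344b-1-3p 1.00 and 1.03 lower.

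**Figure D4:**
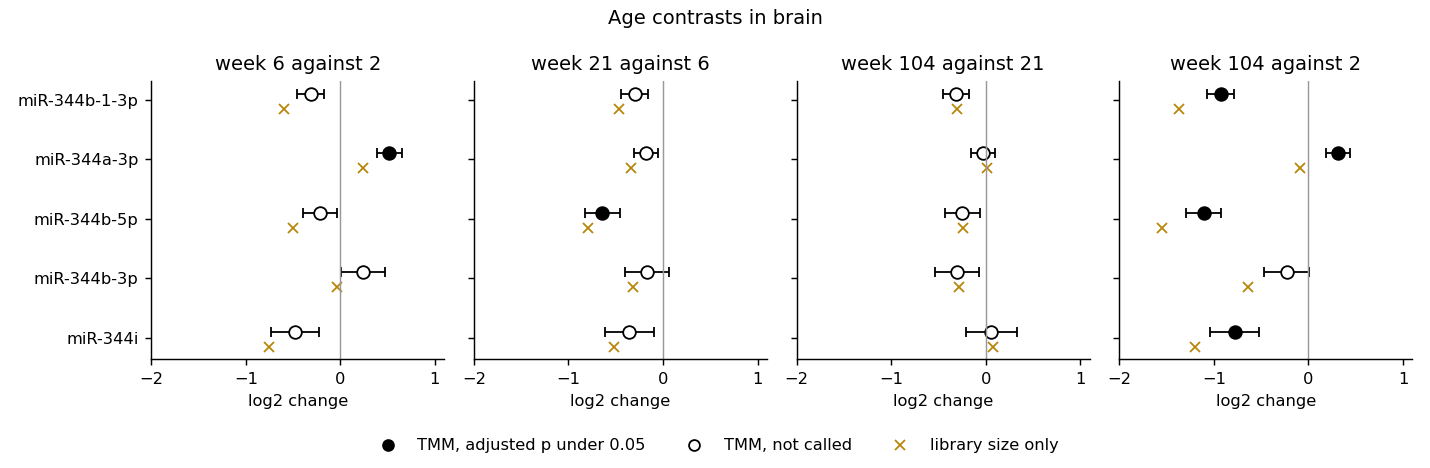
Log2 change of each member in brain for 4 age contrasts; circles are edgeR estimates with TMM factors, filled where adjusted p is below 0.05, bars are ± SE, and crosses the estimates with library size alone. miR-344b-1-3p, miR-344b-5p and miR-344i are called lower at week 104 than at week 2, at -0.93, -1.11 and -0.78, and for miR-344a-3p the circle is at 0.31 and the cross at -0.09.

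The lanes were not even over the ages: all 7 brain libraries of week 6 came from lanes 7 and 8, which held 2 of the 24 brain libraries of the other weeks. With the lane in the model, rno-miR-344a-3p differed by 0.51 between weeks 6 and 2 with adjusted p = 0.195, and neither step into or out of week 6 had a called member, whereas 4 members were called between weeks 2 and 104 as before. From week 21 to week 104 no member was called by edgeR, against 0.487% higher and 2.44% lower of all miRNAs. Counted by sex, rno-miR-344b-1-3p fell by 1.14 in females and by 0.71 in males and rno-miR-344b-5p by 1.28 and 0.93 on the log2 scale, both called in both sexes with edgeR, while rno-miR-344i was called in females at -1.13 and not in males at -0.43. Of all miRNAs, 18.3% were called lower and 19.2% higher in females, and 20.9% and 24.5% in males. Whether the sexes differed in these changes was tested as an interaction, which called no member in brain.

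Ratios within a library do not depend on how libraries are scaled. The share of rno-miR-344b-1-3p in the family's counts went from 74.8% ± 4.13 at week 2 to 58.9% ± 8.41 at week 104, and that of rno-miR-344a-3p from 18.6% ± 4.10 to 35% ± 7.75 (n = 8 each). The log2 ratio of rno-miR-344b-1-3p to rno-miR-344a-3p fell by 1.27, from 2.04 ± 0.434 to 0.77 ± 0.528, and no week 104 library reached the lowest of week 2. Its p was 0.000155 by a two-sided exact permutation test, the smallest possible for 8 against 8, and 0.00497 after adjustment over 32 tests. From week 2 to week 6 it fell by 0.82 (exact permutation p = 0.00233, adjusted p = 0.0186). The pairs with rno-miR-344b-1-3p, this one among them, were added to the tests after the values were seen.

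The products of the Mir344b hairpins did not keep one ratio, although the split of reads between rno-miR-344b-1-3p and rno-miR-344b-3p is uncertain. The log2 ratio of rno-miR-344b-1-3p to rno-miR-344b-5p changed by 0.16 between weeks 2 and 104, with an exact permutation p of 0.342, while rno-miR-344b-1-3p over rno-miR-344b-3p fell by 0.76 (exact permutation p = 0.00932, adjusted p = 0.0462). rno-miR-344b-3p over rno-miR-344b-5p rose by 0.92 (exact permutation p = 0.0101, adjusted p = 0.0462). Both of these calls were lost, at adjusted p of 0.0746 and 0.0827, without replicate 4 of the females at week 104, the brain library with the lowest total and the small share of miRNA reads. rno-miR-344a-3p over rno-miR-344i rose by 0.98 at week 6 and by 1.2 at week 104 (exact permutation p = 0.00171 and 0.000777, adjusted p = 0.0182 and 0.0124). In all, 7 of 32 tests over 8 pairs and 4 contrasts were called, 4 lower and 3 higher. With 1 replicate number left out, 0 to 3 were called; at most 6 libraries an age then remained, with a smallest possible p of 0.00216 between weeks 2 and 104. The fall of rno-miR-344b-1-3p over rno-miR-344a-3p between those weeks was then between 1.11 and 1.43, with an adjusted exact permutation p of 0.0519 without replicate 4 and of at most 0.0462 otherwise.

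In brain 2 libraries stood apart in miR-7a-5p, and the source of this was not tested. Replicate 2 of the females at week 21 had 2654 CPM of miR-7a-5p, a miRNA abundant in hypothalamus and in endocrine cells, and replicate 4 of the females at week 104 had 1018 CPM, while the other 29 brain libraries lay between 177 and 735 CPM. The same libraries had the highest and the sixth highest level of rno-miR-344b-3p, 21.6 and 14.6 CPM against a median of 9.45 CPM in the other 29, and ranked sixth and second for rno-miR-344a-3p, at 137 and 150 CPM. For the other members they ranked lower among the 31: 10 and 30 for rno-miR-344b-1-3p, 18 and 28 for rno-miR-344b-5p, and 27 and 31 for rno-miR-344i. Their part in the age contrasts was measured only for the second of them: without it, rno-miR-344a-3p was no longer called between weeks 2 and 104 (0.18, adjusted p = 0.243), and the 3 members that fell stayed called.

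In the adrenal gland the more abundant members both changed between weeks 2 and 6, in opposite directions. rno-miR-344b-1-3p had its lowest, median and highest library at 8.18, 10.6 and 23.0 CPM at week 2, 2.31, 4.82 and 8.39 CPM at week 6, 1.26, 2.18 and 5.05 CPM at week 21, and 0.960, 2.19 and 3.48 CPM at week 104. It fell by 1.14 on the log2 scale from week 2 to week 6 (SE 0.22, adjusted p = 0.000136) and by 1.96 to week 104 (SE 0.24, adjusted p = 2.46e-08, edgeR's quasi-likelihood test). Every week 104 library lay below every week 2 library, as for 12.7% of all miRNAs. Of all miRNAs, 17.2% were called lower and 15.1% higher at week 6, and 23.7% lower and 21.3% higher at week 104.

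rno-miR-344a-3p had 7.91, 8.83 and 17.7 CPM at week 2, 14.2, 22.0 and 27.7 CPM at week 6, 9.10, 12.6 and 15.6 CPM at week 21, and 8.54, 13.5 and 20.02 CPM at week 104. Week 6 was highest, and it overlapped with the other ages. It rose from week 2 to week 6 by 1.196 (SE 0.15, adjusted p = 1.65e-07, edgeR's quasi-likelihood test), also at 1.04 with library size alone. It then fell by 0.49 to week 21 (adjusted p = 0.0163), where 10.2% of all miRNAs were called lower, and this step was lost with the lane in the model and without replicate 3 or replicate 4. At week 104 it was 0.71 above week 2 (adjusted p = 0.000212), but 0.29 and not called (adjusted p = 0.170) with library size alone. The neural list summed to 1549, 2250, 1219 and 1245 CPM in the adrenal libraries of the 4 ages, with its highest mean also at week 6. Females of week 6, the group highest in rno-miR-344a-3p, held 3 libraries that stood apart in miR-124-3p, replicates 1, 2 and 3 with 85.7, 61.4 and 156 CPM, while the other 29 adrenal libraries had at most 16.0 CPM. In males, whose week 6 libraries had at most 12.4 CPM of miR-124-3p, rno-miR-344a-3p ran from 7.91 to 9.13 CPM at week 2 and from 14.2 to 22.7 CPM at week 6. The neural list sum of these males ran from 890 to 1795 CPM at week 2 and from 1622 to 2064 CPM at week 6. The part of the neural list in these values was not tested further.

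**Figure D5:**
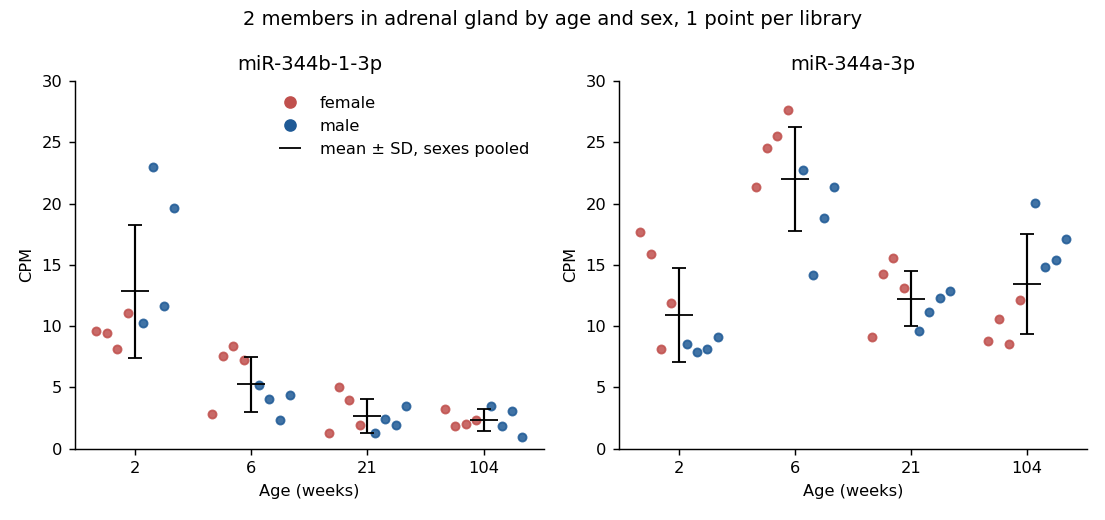
CPM of miR-344b-1-3p and miR-344a-3p in the 32 adrenal libraries against age in weeks; red points are females, blue points males, and black bars the mean ± SD with the sexes pooled. miR-344b-1-3p runs from 12.9 to 2.35 CPM between weeks 2 and 104, and miR-344a-3p has its highest mean, 22.0 CPM, at week 6.

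Outside brain and adrenal gland few changes could be measured. In 144 of the 200 tests of a member in an organ other than brain over 4 age contrasts, no library of either age had more than 3 counts. Of the 200, which include the adrenal gland, 14 were called, 11 lower and 3 higher at the later age, where 29.6% of all such tests over the 616 miRNAs were. Of the 14, 2 rested on at most 3 counts in any library and are given no fold. Without the adrenal gland, 8 of 180 tests were called, 7 lower and 1 higher, and 135 had no library above 3 counts. In muscle rno-miR-344b-1-3p had 1.71, 4.37 and 10.03 CPM at week 2, and 0, 0.133 and 1.43 CPM at week 104, as lowest, median and highest, without overlap, as for 29.7% of all miRNAs. It fell there by 1.67 to week 6, a call lost without replicate 3, and by 3.92 to week 104 (SE 0.76, adjusted p = 3.95e-05, edgeR's quasi-likelihood test). The neural list in muscle went from 1845 to 839 CPM. Its member miR-124-3p ran from 2.29 to 19.9 CPM at week 2 and from 3.58 to 71.2 CPM at week 104. The part of the neural list in the change was not tested.

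The remaining calls concerned levels of a few counts. In uterus the week 2 libraries had 2.31, 2.49, 1.73 and 2.09 CPM of rno-miR-344a-3p and those of week 104 0.378, 0.155, 0.364 and 0.245 CPM, a fall by 1.90 (SE 0.52, adjusted p = 0.00485, edgeR's quasi-likelihood test). These did not overlap, as for 39.9% of all miRNAs, and the call was lost with the lane in the model and without replicate 2. In lung both rno-miR-344a-3p and rno-miR-344b-1-3p were lower at week 104 than at week 2, by 1.55 (lost without replicate 3) and 2.14, and in spleen rno-miR-344a-3p by 2.31, a call that was lost in 5 of 10 alternatives. In spleen the RNA was degraded at week 2 only, so that RNA quality and age cannot be told apart there. In testis rno-miR-344a-3p was called higher at week 104 than at week 21 by 1.88 with TMM, but by 0.65 and not called with library size alone. There 1 week 104 library had 3.73 CPM while the others had 0.896, 0.958 and 0.948 CPM.

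Females and males did not differ in a way that passed the test. Of 45 tests of 5 members in the 9 organs that both sexes have, averaged over the ages, 0 were called by edgeR's quasi-likelihood test and 0 by DESeq2, against 1.39% of all miRNAs, and 3 had an unadjusted p below 0.05. In 26 of the 45, no library had more than 3 counts, so that a difference was hardly detectable at this depth. In brain rno-miR-344b-3p averaged 8.72 CPM in males and 11.9 CPM in females, a log2 difference of -0.43 (SE 0.17, unadjusted p = 0.0144, adjusted p = 0.330, edgeR's quasi-likelihood test). rno-miR-344b-1-3p, at 271 and 305 CPM, differed by -0.13 (SE 0.10), and rno-miR-344a-3p, at 111 and 113 CPM, by -0.01 (SE 0.09).

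The change with age differed between the sexes for 1 of 45 tests, rno-miR-344a-3p in adrenal gland, with adjusted p = 0.0481 by edgeR's quasi-likelihood test; 1.42% of all such tests were called, and 2.11% in adrenal gland. Females had 13.4 ± 4.24, 24.8 ± 2.63, 13.0 ± 2.79 and 10.03 ± 1.68 CPM at the 4 ages and males 8.42 ± 0.540, 19.3 ± 3.77, 11.5 ± 1.42 and 16.8 ± 2.33 CPM (n = 4 each). At week 104 females ran from 8.54 to 12.1 CPM and males from 14.8 to 20.02 CPM. How many of all miRNAs separate in this way was not counted. The call was lost with library size alone, with the lane in the model and without any 1 replicate number.

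Other miRNAs had almost the same distribution over the 44 groups of organ and age. By Pearson's correlation of mean log2(CPM + 1), a description over groups that share the organs, miR-770-5p, miR-323-5p and miR-3099 were most like rno-miR-344b-1-3p (r = 0.985, 0.977 and 0.974). For rno-miR-344a-3p these were miR-325-5p, miR-7b and miR-325-3p (0.964, 0.963 and 0.962), all next highest in adrenal gland as it is, at 6.25, 10.01 and 17.2 CPM against 117, 91.8 and 314 CPM in brain. rno-miR-344b-5p was closest to miR-137-5p, miR-323-5p and miR-124-5p (0.989, 0.984 and 0.983), rno-miR-344b-3p to miR-3552, miR-448-5p and miR-764-3p (0.997, 0.995 and 0.994), and rno-miR-344i to miR-137-5p, miR-764-5p and the candidate rno_miR_chr5_34126 (0.976, 0.971 and 0.966). Between members r ran from 0.861, for rno-miR-344a-3p with rno-miR-344i, to 0.989, for rno-miR-344b-5p with rno-miR-344b-3p. The coefficients are carried by the gap between brain and the other organs, and with ranks none of the 15 names was kept.

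The miRNA that shares the seed AUAUAAC, miR-410-3p of the imprinted Dlk1-Dio3 region, was far more abundant, outside brain as well. It averaged 7342 CPM in brain, 2550 CPM in muscle and 1511 CPM in adrenal gland, where rno-miR-344b-1-3p had 289, 1.76 and 5.78 CPM.

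The neural marker miRNAs moved in both directions with age in brain. Between weeks 2 and 104, 5 of 10 rose, among them miR-124-3p by 1.12 and the oligodendrocyte miRNAs miR-219a-5p by 1.03 and miR-338-3p by 3.26, and 3 fell, namely miR-9a-5p by 0.37, miR-9a-3p by 0.46 and miR-138-5p by 0.51 (edgeR's quasi-likelihood test, adjusted p below 0.05). Their median log2 change was 0.41, that of the 5 members -0.78 and that of all miRNAs 0.07. The summed CPM of the list, in which miR-9a-5p is the most abundant, went from 123201 at week 2 to 87919 at week 104.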

How the data were processed

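Small RNA was sequenced from 320 organ samples of 32 rats (TruSeq small RNA kit, single-end reads on a HiSeq instrument). The deposited values are raw read counts per mature miRNA: the authors trimmed reads with fastp 0.23.2, kept lengths of 16 to 35 nt, aligned with Bowtie 1.3.1 to miRBase 22.1 with fewer than 2 mismatches, and dropped miRNAs averaging under 1 count per library. The libraries carry no molecular identifiers, so intervals cover counting error only.

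Groups of organ, sex and age came from the sample labels, with 4 rats each; all libraries entered but the 2 the study removed. Replicates are separate animals. CPM used column totals. Counts were tested with edgeR 4.0.16 in R 4.3.3 (glmQLFit and glmQLFTest, TMM, Benjamini-Hochberg over all 616 miRNAs of a contrast, adjusted p below 0.05): 1 fit of all organs per age, and 1 fit per organ of sex by age groups. The scripts were tested on simulated data. Ratios were compared by two-sided exact permutation tests (SciPy 1.17.1).

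The members and lists were chosen with earlier results of these data known. A working list named 4 members; the name rule also found rno-miR-344b-1-3p, which was kept, and 4 ratio pairs with it and the comparison of brain with adrenal ratios were added after the values were seen. Other miRNAs named are the 3 most correlated with each member, those sharing a seed, and neural markers. Lanes came from the study's sample list. Alternatives were library size alone, DESeq2 1.42.0, only miRNAs averaging 10 counts or more, keeping the removed libraries, terms for lane, sex or replicate number, and leaving out replicates. The labels do not say that a number marks 1 rat across organs. Samples with equal numbers were hardly more alike than others (mean correlation of deviations 0.00834 for equal and -0.00267 for different numbers). This cannot show that equal numbers are different rats. Each rat gave 10 organs, and the main fits of all organs and the comparison of brain with adrenal ratios treated their libraries as independent.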

Additional observations from a re-analysis of the deposited data

Results flagged for a closer look

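In 51 groups of 4 libraries, 2 held a library far from the other 3, where chance alone gives about 1 in 20. rno-miR-344b-3p had 21.6 CPM in replicate 2 of the females at week 21 in brain, against 7.35 to 9.35 CPM in the other 3. rno-miR-344i had 6.31 CPM in replicate 1 of the males at week 2 in brain, against 3.42 to 3.83 CPM. The change of rno-miR-344a-3p with age in adrenal gland differed between the sexes (adjusted p = 0.0481, edgeR's interaction test).

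The spleen library of a female at week 104 that the study removed because it clustered with uterus held 21.9 CPM of rno-miR-344b-1-3p, 10.6 CPM of rno-miR-344a-3p and 1.74 CPM of rno-miR-344b-5p, while the 3 kept libraries of its group had 0 to 0.675, 0 to 1.99 and 0 CPM. It is in none of the comparisons. The removed brain library of a male at week 6 had 209 CPM of rno-miR-344b-1-3p and 56.8 CPM of rno-miR-344a-3p.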

How the results depend on the processing

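Brain-enriched members numbered 4, and 1 of the 2 tested with a mean count of at least 10, 2 with the lane, 3 with DESeq2 or sex and 3 without any 1 replicate number. Called members were 1 from week 2 to week 6 (3 with library size, 2 with DESeq2 or a mean count of at least 10, 0 with the lane, 1 to 2 with replicates left out), 1 from week 6 to week 21 (2 with library size, 0 with a mean count of at least 10 or the lane, 0 to 1 with replicates left out) and 4 from week 2 to week 104 (1 with a mean count of at least 10, where only 2 members are tested, and 2 to 3 with replicates left out). In the other organs 14 tests were called, 9 with the lane and 9 to 13 with replicates left out. The interaction call became 0 with library size, the lane or any replicate left out. Ratio calls numbered 7, and 0 to 3 without 1 replicate number and 4 without the single brain library with the lowest total. Of the 15 most correlated miRNAs, 5 were kept with 10 CPM added and 0 with ranks. The causes were not tested beyond the fewer members or samples that a filter leaves.

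Signs turned only for values that were not called under the alternative. From week 21 to week 104 rno-miR-344a-3p went to 0.0134 with library size, 0.0490 with the lane, and between -0.0827 and 0.0142 with replicates left out, and rno-miR-344i between -0.207 and 0.327. From week 6 to week 21 with replicates left out, rno-miR-344a-3p was between -0.324 and 0.00709 and rno-miR-344b-3p between -0.328 and 0.000622. With library size rno-miR-344b-3p was at -0.0385 at week 6 and rno-miR-344a-3p at -0.0923 at week 104, both against week 2, and with the lane rno-miR-344i was at 0.0261 at week 6.

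With the replicate number as a block, brain-enriched members were 3, calls from week 2 to week 6 were 2, and the interaction call became 0; no other count of calls moved by more than 1.5 times. Of the samples, 96 correlated best across organs with their own number, where 4 numbers were in use.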
